A study of Mus musculus with 3 samples.

Results

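T cells of the mouse vomeronasal organ (VNO), the chemosensory organ of the nasal septum that detects pheromones, were described from 3 libraries of droplet single-cell RNA-seq. A T cell was a barcode with at least 3 unique molecular identifiers (UMIs, each a counted RNA molecule) of Cd3d, Cd3e and Cd3g together, at most 0.1% of its UMIs from C1qa, C1qb and C1qc, and at most 1 UMI of Cd79a. The rule was applied to barcodes with 200 to 9000 genes, at least 1000 UMIs and at most 10% mitochondrial UMIs, called kept barcodes here. It found 681 T cells among 13353 kept barcodes, out of 27359 barcodes in the files.

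All mice were male, of the C57 BL/6J 129P2/OlaHsd Mixed Background, and all carried OMPCre, the Cre recombinase expressed from the olfactory marker protein gene. The P10 control (postnatal day 10) was OMPCre Heterozygous. The P10 mutant and the 3-month mutant were OMPCreR26AP2e Double Heterozygous, so that they also held, at the Rosa26 locus, a transgene of the transcription factor AP-2ε (Tfap2e). Omp marks mature olfactory and vomeronasal sensory neurons, the cells in which this Cre is made. The VNOs were dissociated with papain, collagenase A and DNase, and the suspensions were frozen and thawed and were not sorted. There was 1 library per group, so at P10 the genotype cannot be told apart from the library, nor can age be between the mutants, and no difference has a replicate check. The number of animals behind each library is not given in the sources used here. No 3-month control was analysed here.

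T cells recognise antigen through a receptor whose signal is carried by the CD3 chains, encoded by Cd3d, Cd3e, Cd3g and Cd247. Most T cells carry a receptor of an alpha and a beta chain (constant regions Trac, Trbc1 and Trbc2) together with CD4, which marks helper and regulatory cells, or CD8, which marks cytotoxic cells. A smaller population carries a gamma and a delta chain (Tcrg-C1, Tcrg-C2, Tcrg-C4 and Trdc), is common in mucosal and barrier tissues, and in part makes interleukin 17A. T cells that stay in a tissue typically express Cd69, Cxcr6, Itgae or Itga1, whereas those that circulate through lymph nodes express Ccr7.

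T cells were a small part of the P10 libraries and a larger part of the 3-month mutant. Among the 4305 kept barcodes of the P10 control were 44 T cells (1.02%, 0.744 to 1.37). With 3741 kept barcodes, the P10 mutant held 86 T cells (2.30%, 1.84 to 2.83). The 3-month mutant had 5307 kept barcodes, of which 551 were T cells (10.4%, 9.57 to 11.2). Ranges beside shares are exact Clopper-Pearson 95% intervals and cover counting error only. The order of the P10 libraries turned with the limit on mitochondrial UMIs: at most 5% left 21 of 1493 barcodes of the P10 control as T cells (1.41%) and 15 of 1231 of the P10 mutant (1.22%). The 3-month mutant held 12.9% at that limit. A share of recovered barcodes depends on every other cell type and on how each came through dissociation and freezing, and their part was not tested.

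Around the threshold, 9, 13 and 24 kept barcodes had 2 UMIs of the CD3 genes (P10 control, P10 mutant and 3-month mutant, in this order throughout), and 2, 4 and 2 T cells had exactly 3. Most T cells lay well above it, with 40, 74 and 474 cells at 8 or more. The limits on C1q and Cd79a removed 1, 1 and 10 barcodes.

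For most T cells the label held against genes that the rule did not use. At least 1 UMI of a receptor constant region was found in 41 of 44, 83 of 86 and 547 of 551 T cells, against 13 of 269, 4 of 243 and 11 of 689 macrophages (barcodes with over 0.1% C1q UMIs), which should lack them. The median T cell had 6582.5, 6539.5 and 4168 UMIs, and the median macrophage 6357, 9994 and 7270. Of the markers fixed for T cells that the rule did not use, Trbc2 was detected in 41 of 44, 80 of 86 and 524 of 551 T cells, while Ccl5, Nkg7 and Cd8a were in a minority of the P10 cells: Nkg7 was in 7, 12 and 327 and Cd8a in 2, 5 and 202. The label was weaker in P10 cells with no UMI of Cd4, Cd8a, Cd8b1 or Trdc. Of these, Trac was in 1 of 9 in the control and 7 of 17 in the mutant. Neither Trbc1 nor Trbc2 was found in 3 of 9 and 3 of 17. Tyrobp and Fcer1g, from the list of natural killer and innate lymphoid genes, were each in 6 of 11 T cells without Trdc in the P10 control. What cells these are was not tested. No T cell barcode was shared between libraries. Rag1, Rag2, Dntt and Ptcra, which mark developing T cells of the thymus, had 0 UMIs in all T cells.

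Library totals were 70074800 to 83870584 UMIs. Free RNA was present: Obp2a, an odorant-binding protein of the glands, was detected in 33, 33 and 548 T cells, and the antibody light chain Igkc in 492 T cells of the 3-month mutant and in 0 at P10. Markers of another cell type passed 1% of the UMIs in 4, 3 and 51 T cells, of which 38 at 3 months passed on gland markers. Tfap2e was at 9.71, 162 and 52.2 CPM (a gene's UMIs relative to all UMIs of the same barcodes, on the usual count scale) over all kept barcodes and was detected in 0 of 44, 16 of 86 and 49 of 551 T cells, beside 3 of 269, 31 of 243 and 44 of 689 macrophages. No correction for free RNA was made and doublets were not called, and their part in the results was not tested.

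**Figure D1:**
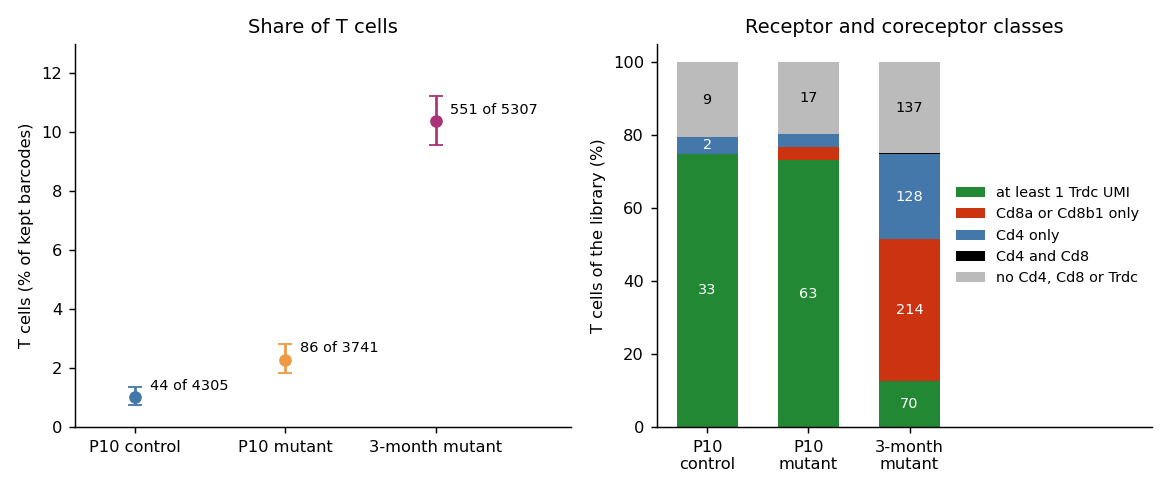
T cells in each library. Left, T cells as a percent of kept barcodes with exact 95% intervals as bars. The points are at 1.02%, 2.30% and 10.4%, with the 3-month mutant highest. Right, the percent of T cells in each class, with Trdc-positive cells counted first: they fill 75.0%, 73.3% and 12.7% of the bars, and 1 CD8 cell with Trdc UMIs is drawn with them at 3 months. Numbers on the bars are cells.

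The T cells of the 3-month mutant were set apart from its other kept barcodes by receptor genes, receptor signalling genes and effector cytokines. Levels are given as CPM over the pooled cells of a class, with exact Poisson 95% intervals in brackets, and ratios of CPM with conditional exact binomial 95% intervals. Since the rule chose the cells, these values describe them and test nothing. In this comparison 16852 genes had at least 20 UMIs over both sides, and 10.4% of them were over 2-fold higher and 27.5% over 2-fold lower in T cells.

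Leaving out the CD3 genes of the rule, the 15 genes with the largest lower bound belonged to a few groups. Receptor chains made up 7 of them, beside the coreceptor Cd8a. Trbc2 was 285-fold (249 to 328) higher in T cells and was detected in 524 of 551 of them, and Trbc1 was 229.8-fold (192 to 277) higher. Trdc was 1020-fold (566 to 2054) higher, Tcrg-C2 1092-fold (296 to 9115), Tcrg-C1 531-fold (285 to 1119.8), Trdv4 521-fold (260.2 to 1222) and Trgv2 722-fold (241 to 3549), and Cd8a was 270.1-fold (209 to 354) higher. Genes of receptor signalling were Lat, the adaptor phosphorylated downstream of CD3 (255-fold, 204 to 325), Trat1, another membrane adaptor (432-fold, 205 to 1091), and Cd6, a surface coreceptor of T cells (301-fold, 213 to 438). Lat was detected in 442 of 551 T cells. Effector genes were Il17a, interleukin 17A (800-fold, 578 to 1140.2), Ifng, interferon gamma (260.1-fold, 201 to 342), and Gzmk, the protease granzyme K (399-fold, 213 to 844). Il17a was detected in 82 of 551 T cells and Ifng in 235 of 551. Actn2, an actin-crosslinking protein best known from muscle, was the remaining gene, 349-fold (229 to 556) higher and detected in 203 of 551 T cells. Trbc1 and Trbc2, and Tcrg-C1, Tcrg-C2 and Tcrg-C4, are near-identical copies, so their reads may be split between copies or lost, and their separate levels are uncertain.

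CD4 and CD8 cells together made up most of the T cells at 3 months and few at P10. A CD4 cell had at least 1 Cd4 UMI and none of Cd8a and Cd8b1, and a CD8 cell the reverse. In the 3-month mutant 215 of 551 (39.0%, 34.9 to 43.2) T cells were CD8 and 128 of 551 (23.2%, 19.8 to 27.0) were CD4, 2 had both and 206 had neither. The P10 control held 2 CD4 and 2 CD8 cells of 44, and the P10 mutant 3 CD4 and 5 CD8 cells of 86. Of these, 2 CD8 cells in each P10 library also had Trdc UMIs. In the P10 mutant Cd8b1 was in 3 and Nkg7 in 5 of the 5 CD8 cells, while in the P10 control Cd8b1 had 0 UMIs in both CD8 cells. Trac was detected in 2 of 2 CD4 cells of the control and 3 of 3 of the mutant.

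The split rests on few molecules. Cd4 averaged 270.4 CPM (235 to 309) in CD4 cells, where it was used for the call, while Cd8a reached 811 CPM (761 to 865) and Cd8b1 645 CPM (599.7 to 693) in CD8 cells. When each cell was thinned to 1000 UMIs, 160 cells were still called CD8 and 44 CD4 in the 3-month mutant, and 0 and 0 in the P10 control and 2 and 1 in the P10 mutant. Cells in which the coreceptor was missed cannot be told apart from cells without it. Cd4 was also detected in 161 of 689 macrophages of the 3-month mutant, which in mouse can express it at a low level, and Cd8a in 3 of 689.

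CD8 cells of the 3-month mutant were marked by cytotoxicity genes and receptors shared with natural killer cells, relative to CD4 cells of the same library. Among 8000 genes with at least 20 UMIs in both together, 459 (5.74%) were over 2-fold higher and 665 (8.31%) over 2-fold lower in CD8 cells, with a median log2 ratio of -0.07. Of the 14 cytotoxicity genes 13 were compared, 11 were over 2-fold higher, 0 over 2-fold lower, and the median log2 ratio was 3.27. CD4 and CD8 cells had 3968.5 and 4439 median UMIs.

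Ccl5 encodes the chemokine RANTES, which draws T cells and monocytes. It was detected in 211 of 215 CD8 cells and 38 of 128 CD4 cells, at 6901 CPM (6751 to 7053) against 325 CPM (287 to 368), a ratio of 21.2 (18.7 to 24.1). After thinning it was still seen in 199 CD8 and 15 CD4 cells. Macrophages make it too, with a UMI in 178 of 689. Nkg7, a protein of cytotoxic granules, was at 1469 CPM (1400.4 to 1540.1) in CD8 and 152 CPM (126 to 182) in CD4 cells, a ratio of 9.68 (8.03 to 11.8). It was detected in 207 of 215 and 47 of 128 cells, beside 4 of 689 macrophages. Both were found together in a larger part of the CD8 cells: 205 of 215 CD8 and 20 of 128 CD4 cells had UMIs of Ccl5 and Nkg7.

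The granzymes, serine proteases that kill target cells, differed in how many CD8 cells carried them. Gzmk was detected in 101 of 215 CD8 cells at 168 CPM (146 to 193), against 6 of 128 CD4 cells at 12.8 CPM, a ratio of 13.2 (7.02 to 27.9). Gzma, granzyme A, was at 319 CPM (288 to 354) from 374 UMIs in 23 of 215 CD8 cells, against 1 UMI in CD4 cells, a ratio of 250.4 (44.7 to 9918). Gzmb, granzyme B, was found on both sides, at 86.3 CPM (70.3 to 105) in CD8 and 56.1 CPM (40.8 to 75.3) in CD4 cells and in 38 and 12 cells. Prf1, the pore-forming perforin, was detected in 46 of 215 CD8 cells and 1 of 128 CD4 cells. Gzmk was thus detected in more CD8 cells than Gzma or Gzmb.

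Receptors of the natural killer group were also higher in CD8 cells. Klrd1 (CD94) was 23.5-fold (13 to 47.5) higher in CD8 cells and detected in 136 of 215, and its partner Klrc1 (the inhibitory receptor NKG2A) 21.2-fold (11.7 to 43.0) higher in 134 of 215 cells. Klre1, a related lectin receptor, had 80 UMIs in CD8 cells against 1, a ratio of 53.6 (9.34 to 2142). Klrk1 (NKG2D, which senses stressed cells) was at 309 CPM against 44.6 CPM. Klrc1 and Klrc2 are close copies, so their separate levels are uncertain. Slamf7, a surface receptor of cytotoxic lymphocytes, was 24.8-fold (9.47 to 92.1) higher, and Ly6c2, a surface antigen of memory CD8 cells and monocytes, 23.6-fold (13.7 to 44.7) higher in 65 of 215 cells. Of the 12 genes of natural killer and innate lymphoid cells 7 were compared, 4 were over 2-fold higher in CD8 cells and 1 lower (median log2 ratio 1.24). Ncr1 and Klra4 had 0 UMIs in CD4 and CD8 cells.

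Gamma chain RNA was also detected in CD8 cells. Tcrg-C2 had 49 UMIs in 30 of 215 CD8 cells and 0 in CD4 cells. The ratio was 10.9 with a floor of 3 counts set for the CD4 cells, and its lower bound without the floor was 8.56. Trgv2 was detected in 32 of 215 CD8 and 1 of 128 CD4 cells. Trdc was detected in 1 of 215 CD8 cells, with 35 UMIs, so that the ratio of Trdc rests on this cell. Of the 13 genes of gamma-delta cells 5 were compared, 3 higher and 1 lower past 2-fold (median log2 ratio 2.97).

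Promoters of 3 CD8-high genes are shown with the core letters TGTGGT, which transcription factors of the RUNX family bind. The stretches are the 250 bases before the start of transcription in RefSeq, build GRCm38.p6, written 5′ to 3′ on the gene's strand, and capitals mark each match on either strand (ACCACA is the reverse). Nkg7 lies at chr7:43437073-43438249 and its stretch at chr7:43436888-43437137, Gzma at chr13:113093825-113100981 with chr13:113100982-113101231, and Klrc1 at chr6:129666015-129678973 with chr6:129678974-129679223. The gene span of Nkg7, from GENCODE, begins before its RefSeq start.
Nkg7: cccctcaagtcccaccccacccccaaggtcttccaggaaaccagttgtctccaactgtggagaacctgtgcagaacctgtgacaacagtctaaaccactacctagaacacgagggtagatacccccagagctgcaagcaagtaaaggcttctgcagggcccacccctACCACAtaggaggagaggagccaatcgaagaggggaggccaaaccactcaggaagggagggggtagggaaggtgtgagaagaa
Gzma: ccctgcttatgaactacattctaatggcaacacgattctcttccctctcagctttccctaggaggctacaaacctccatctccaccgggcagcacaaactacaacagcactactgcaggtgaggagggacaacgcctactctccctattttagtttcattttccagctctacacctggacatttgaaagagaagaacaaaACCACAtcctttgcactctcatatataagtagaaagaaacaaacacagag
Klrc1: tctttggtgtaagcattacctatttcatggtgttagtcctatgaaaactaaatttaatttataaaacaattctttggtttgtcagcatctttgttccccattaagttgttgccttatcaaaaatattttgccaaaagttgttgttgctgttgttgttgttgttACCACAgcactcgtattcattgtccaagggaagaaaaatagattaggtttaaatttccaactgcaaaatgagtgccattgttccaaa
The match began 83 bases before the start in Nkg7, 50 in Gzma and 87 in Klrc1. TGTGGT was present in 4614 of 32851 promoter stretches of that length (14.0%), and in 15.9% of genes when any of a gene's starts counted. Of 12 cytotoxicity genes with a promoter in the table, 10 had a match at any start, beside 3 of 8 genes of the type 3 programme. A match of letters is not a bound site.

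**Figure D2:**
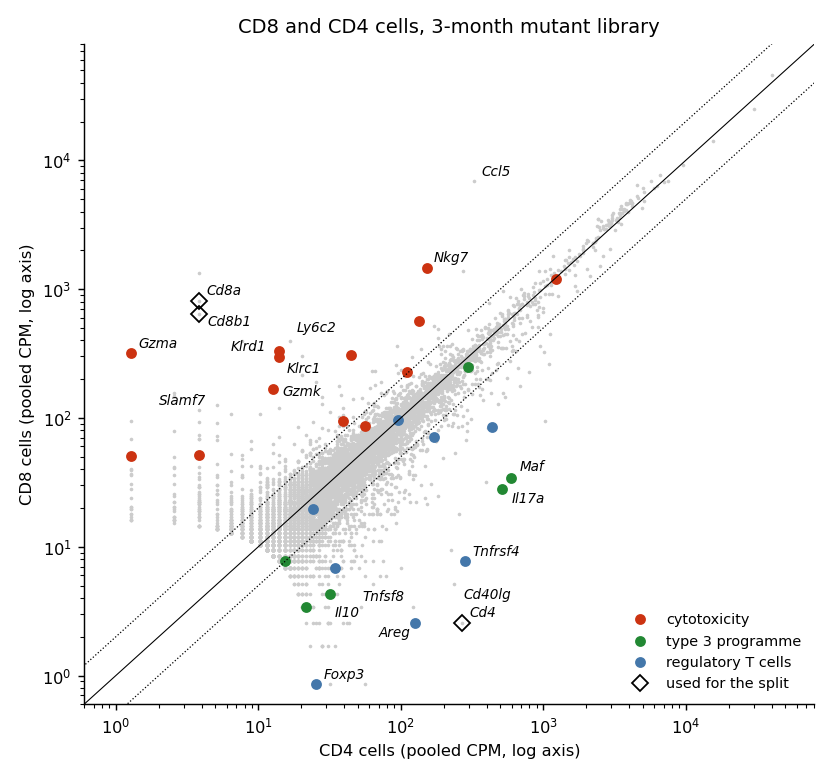
Pooled level of each gene compared (grey) in CD4 cells (horizontal axis) and CD8 cells (vertical axis) of the 3-month mutant, both in CPM on log axes, with dotted lines at 2-fold, 3 lists in colour and the genes of the split as diamonds. Ccl5, Nkg7, Klrd1, Klrc1 and Gzma lie above the upper line, Cd40lg, Tnfrsf4, Maf and Il17a lie below the lower line, and genes with 0 UMIs in a group are drawn at its floor of 3 counts.

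CD4 cells carried helper, regulatory and type 3 genes instead. Cd40lg, the CD40 ligand with which helper T cells license B cells and macrophages, had the smallest upper bound of the ratio: it was detected in 74 of 128 CD4 cells at 236 CPM (203 to 273) and in 2 of 215 CD8 cells at 5.12 CPM. Maf, a transcription factor of cytokine-producing T cells, was detected in 99 of 128 CD4 cells at 589 CPM (537 to 646) and in 20 of 215 CD8 cells at 34.2 CPM (24.4 to 46.5). After thinning it was seen in 67 CD4 and 8 CD8 cells. Macrophages also express Maf, with UMIs in 371 of 689.

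Further genes with the smallest upper bounds were receptors, ligands and secreted proteins. Tnfrsf4 (the costimulatory receptor OX40) was detected in 78 of 128 CD4 and 5 of 215 CD8 cells, Tnfsf8 (the CD30 ligand) in 35 and 4, and Izumo1r, the folate receptor 4 of regulatory and activated CD4 cells, in 26 and 1. Areg, amphiregulin, a growth factor of tissue repair, was detected in 19 CD4 cells at 126 CPM (103 to 154) against 2 CD8 cells at 2.56 CPM. Podnl1, a secreted leucine-rich repeat protein, was detected in 40 CD4 and 7 CD8 cells. Il10, the anti-inflammatory interleukin 10, had 24 UMIs in 9 CD4 cells and 0 in CD8 cells.

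Of the 11 regulatory genes 8 were compared, 0 were over 2-fold higher in CD8 cells and 6 lower, with a median log2 ratio of -2.35. Foxp3, the transcription factor that defines regulatory T cells, was detected in 9 of 128 CD4 cells, in 1 of 215 CD8 cells, and in 10 of 137 cells with neither coreceptor and no Trdc. At P10 it was detected in 0 of 44 and 1 of 86 T cells, and in macrophages of the 3-month mutant in 0 of 689. Cells with a Foxp3 UMI were thus a small minority at this depth. The 9 Foxp3-positive CD4 cells, chosen by that gene, had UMIs of Ctla4 (the inhibitory receptor CTLA-4) in 8, of Tnfrsf4 in 9, of Tnfrsf18 (GITR) in 8, of Il2ra (the interleukin 2 receptor alpha chain) in 6 and of Il10 in 6. The other 119 CD4 cells had Ctla4 in 89, Tnfrsf4 in 69, Tnfrsf18 in 61, Il2ra in 13 and Il10 in 3. Il10 was at 275 CPM (165 to 429) in Foxp3-positive and 6.99 CPM (2.27 to 16.3) in the other CD4 cells. Without these 9 cells 442 genes were over 2-fold higher and 669 lower in CD8 cells. Foxp3 and Il10 then had under 20 UMIs and were no longer compared, with 19 of the 24 Il10 UMIs of CD4 cells in the 9 cells left out.

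The type 3 programme, the genes of interleukin 17 producing cells, lay on the CD4 side. Of 10 genes 6 were compared, 0 were over 2-fold higher in CD8 cells and 4 lower, with a median log2 ratio of -2.78. Il17a was detected in 21 of 128 CD4 cells at 515 CPM (466 to 568) and in 2 of 215 CD8 cells at 28.2 CPM (19.4 to 39.6), or 13.9 CPM (7.94 to 22.6) without 1 of these cells. Il23r, the interleukin 23 receptor, was detected in 2 CD4 and 0 CD8 cells. Il17a was seen in 3 of 689 macrophages.

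Interferon gamma was found on both sides. Ifng was at 334 CPM (302 to 369) in 127 of 215 CD8 cells and at 329 CPM (290.1 to 372) in 51 of 128 CD4 cells, and the share of cells with a UMI was 59.1% and 39.8%. After thinning the shares were 20.9% and 21.9%. In 17 cells of the 3-month mutant Ifng and Il17a were detected together, 7 of them CD4 and 10 with neither coreceptor and no Trdc, and none was CD8 or Trdc-positive. Of the 8 genes of the type 1 programme 3 were over 2-fold higher in CD8 cells and 0 lower (median log2 ratio 0.00): Tbx21, the factor T-bet, was at 51.2 CPM and 23.0 CPM, Eomes, its relative, at 33.3 CPM and 0 UMIs, and Il12rb2, a chain of the interleukin 12 receptor, at 33.3 CPM and 11.5 CPM. Of the 8 effector chemokines and cytokines 7 were compared and 3 were over 2-fold higher in CD8 cells (median log2 ratio 0.02): Ccl5, Ccl4 (1387 CPM and 274 CPM) and Xcl1, which attracts dendritic cells (396 CPM and 7.65 CPM). A single cell held 31.5% of the Xcl1 UMIs of CD8 cells, and the level without it was 273 CPM (244 to 305). The type 2 programme was hardly present, with 1 of 8 genes compared: Gata3 at 47.0 CPM and 71.4 CPM (log2 ratio -0.60).

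The receptor complex, receptor signalling and resident genes had fewer members past 2-fold than the cytotoxicity genes. None of the 7 receptor complex genes passed 2-fold in either direction (median log2 ratio 0.18), with Trac at 538 CPM (488 to 592) in CD4 and 488 CPM (449 to 529) in CD8 cells. Of 18 genes of receptor signalling and costimulation 0 were over 2-fold higher in CD8 cells and 3 lower (median -0.01). Those lower were Cd5, which dampens receptor signals (85.4 CPM in CD8 and 254 CPM in CD4 cells), Cd28, the main costimulatory receptor (150.3 CPM and 359.7 CPM), and Icos, its inducible relative (243 CPM and 666 CPM). Lck, the kinase bound to CD4 and CD8, was at 254 CPM and 227 CPM.

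Cells with genes of tissue residence far outnumbered those with Ccr7. Of the 551 T cells of the 3-month mutant 424 had Cxcr6, a chemokine receptor of resident cells, beside 4 of 689 macrophages. Cd69, which retains T cells in tissue, was in 474 T cells and 205 macrophages. B cells were barcodes with at least 3 UMIs of Cd79a, Cd79b and Ms4a1 together and few of the CD3 and C1q genes. In this library they had Cxcr6 in 1 of 137 and Cd69 in 114 of 137. At P10 Cd69 was in 72 of 86 and 74 of 87 B cells, so it was not particular to T cells. At least 1 UMI of Cxcr6, Itgae or Itga1 was found in 448 cells, and of Ccr7, which directs T cells to lymph nodes, in 19. Of the 9 resident genes compared between CD8 and CD4 cells 2 were over 2-fold higher in CD8 cells and 0 lower (median log2 ratio 0.13). They were the integrins Itgae (CD103, which binds epithelial E-cadherin), in 93 of 215 CD8 cells at 215 CPM (189 to 244) against 12 CD4 cells at 20.4 CPM (11.7 to 33.1), and Itga1 (CD49a, which binds collagen), in 93 CD8 cells at 139 CPM (119 to 162) against 20 at 45.9 CPM (32.2 to 63.6). In 57 CD8 and 5 CD4 cells both integrins were detected. Of the 10 naive and circulating genes 9 were compared, with 0 higher and 1 lower past 2-fold (median -0.47).

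**Figure D3:**
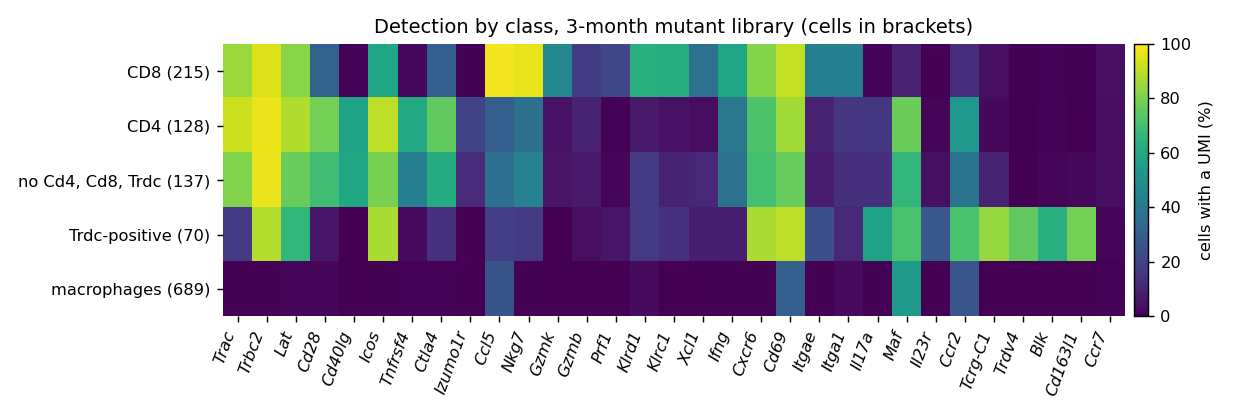
Colour gives the percent of cells with at least 1 UMI, without thinning, for each gene (columns) in the classes of T cells of the 3-month mutant and in its macrophages (rows). Cxcr6 and Cd69 are in most cells of every T cell class, Ccl5 and Nkg7 stand out in CD8 cells, Cd40lg in CD4 cells and cells with neither coreceptor, and Il17a, Trdv4 and Cd163l1 in Trdc-positive cells.

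Cells with neither coreceptor and no Trdc numbered 137 of 551 (24.9%, 21.3 to 28.7) T cells of the 3-month mutant. Fewer genes passed 2-fold between them and CD4 cells than between them and CD8 cells. Against CD4 cells 2.75% of 7087 genes were over 2-fold higher and 4.66% lower, against CD8 cells 6.1% and 5.63% of 7675. Of the regulatory genes 0 higher and 0 lower of 8 passed 2-fold against CD4 cells, and 6 of 8 were higher against CD8 cells. Of the type 3 genes 1 of 9 was higher against CD4 cells and 6 of 7 against CD8 cells. Cd40lg was at 329 CPM (287 to 375) in 82 of 137 of them.

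They also held cells with cytotoxicity genes. Of these 5 of 11 were over 2-fold higher than in CD4 cells (median log2 ratio 0.63) and 9 of 13 lower than in CD8 cells (median -1.65). Nkg7 was at 328 CPM (286 to 374) in 61 of 137 cells, between its levels in CD4 and CD8 cells. Klra7 and Klra1, receptors of the Ly49 family of natural killer cells, were detected in 9 and 8 of these cells (8 cells had both), in 7 and 5 CD8 cells and in 0 CD4 cells. The genes of this family are near-identical copies, so which of them was expressed is uncertain.

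Trdc-positive cells were most of the T cells at P10 and a smaller share at 3 months. At least 1 UMI of Trdc, the constant region of the delta chain (chr14:54142851-54148868), was found in 33 of 44 (75.0%, 59.7 to 86.8) T cells of the P10 control. The P10 mutant had 63 of 86 (73.3%, 62.6 to 82.2) and the 3-month mutant 70 of 551 (12.7%, 10.0 to 15.8). They numbered 63 and 70 in the mutants, while the other T cells numbered 23 and 481. Thinned to 1000 UMIs in 1 draw, 28, 43 and 62 cells kept a Trdc UMI, where 26.6, 47.5 and 56.5 were expected over all draws. Macrophages had a Trdc UMI in 5 of 269, 1 of 243 and 1 of 689.

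The receptor chains of these cells were largely those of gamma-delta cells. Trdc was at 2409 CPM (2223 to 2606), 1809.5 CPM (1694 to 1931) and 1821 CPM (1682 to 1969.7) in them, which the call fixed. Trac, the alpha constant region that lies on the same chromosome at chr14:54220521-54224206, was detected in 10 of 33, 13 of 63 and 12 of 70, beside 413 of the 481 other T cells of the 3-month mutant. The variable gene Trdv4 was detected in 21, 25 and 53 Trdc-positive cells. Trbc2 was nevertheless detected in 33, 62 and 62 of them, so beta chain RNA did not separate the classes.

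**Figure D4:**
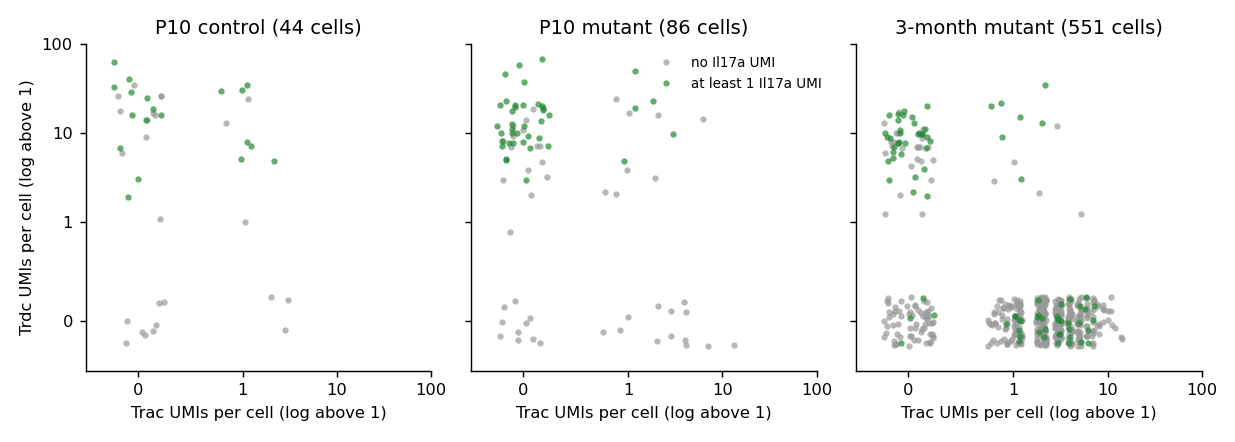
UMIs of Trac (horizontal axis) and Trdc (vertical axis) in each T cell of the 3 libraries, log-scaled above 1 and slightly spread to show overlapping cells, with cells that have an Il17a UMI in green. Most P10 cells have Trdc UMIs, most 3-month cells have Trac and no Trdc UMIs, and 10, 13 and 12 cells have both. Green cells all have Trdc at P10 and are found with and without it at 3 months.

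Trdc-positive cells carried the genes of interleukin 17 production in all 3 libraries. Il17a was detected in 19 of 33, 40 of 63 and 41 of 70 of them, at 1735 CPM (1578 to 1904), 1796 CPM (1680 to 1917) and 2667 CPM (2497 to 2845). After thinning the cells numbered 14, 22 and 33. At P10 no T cell without Trdc had an Il17a UMI, whereas at 3 months 41 of the 82 cells with Il17a had none of Trdc. A single cell held 49.8% of the Il17a UMIs of the P10 control, whose level without it was 897 CPM (783 to 1022). Macrophages had Il17a in 0 of 269, 0 of 243 and 3 of 689.

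Compared with the other T cells of the same library, the type 3 genes were higher past 2-fold in 6 of 8, 7 of 9 and 5 of 10 compared, and lower in 0, 0 and 1. Their median log2 ratios were 1.60, 3.06 and 1.50, beside 0.09, 0.18 and -0.08 over all genes. In all, 16.1%, 14.5% and 4.98% of the 2430, 4506 and 9362 genes compared were over 2-fold higher, and 6.13%, 5.93% and 14.6% lower, and 11 and 23 other T cells stand behind the P10 values. Of these 2 and 3 held markers of another cell type above 1% of their UMIs, and S100a8, a neutrophil gene, was at 15273 CPM and 20336 CPM in them, beside 15.6 CPM and 24.0 CPM in Trdc-positive cells. A single cell of each library held 95% and 92.7% of these S100a8 UMIs, which were found in 4 of 11 and 8 of 23 other T cells, and without it the level was 833 CPM and 1798 CPM. Without cells of mixed markers 7 of 8 and 8 of 9 type 3 genes were over 2-fold higher at P10. Genes of natural killer and innate lymphoid cells were also found in the other T cells of the P10 control. Tyrobp was at 1131 CPM in 6 of these 11 cells, against 3.89 CPM in Trdc-positive cells. Fcer1g was at 955 CPM in 6 of them, against 0 UMIs. What share of the other P10 cells are alpha-beta T cells was not tested. In Trdc-positive cells Il23r was at 89.5 CPM, 52.0 CPM and 72.6 CPM, and Il1r1, the interleukin 1 receptor that stimulates these cells, at 85.6 CPM, 84.0 CPM and 61.0 CPM. Cd163l1 (SCART1), a scavenger receptor of gamma-delta cells, was at 852 CPM, 709.8 CPM and 654 CPM, and Blk, a kinase that such cells share with B cells, at 327 CPM, 339.9 CPM and 273 CPM. Cd163l1 in the other T cells of the 3-month mutant was at 1.52 CPM and Blk at 3.05 CPM. Of the gamma-delta genes 6 of 7, 9 of 10 and 10 of 10 were over 2-fold higher. Each count includes Trdc, whose place among them was fixed by the call.

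Coreceptor and costimulation genes of alpha-beta cells were low in them at 3 months. Of 18 genes of receptor signalling 9 were over 2-fold lower than in the other T cells and 0 higher (median log2 ratio -0.77), among them Cd28 (20.3 CPM against 266 CPM), Cd5 (11.6 CPM against 172 CPM), Cd6 (5.81 CPM against 217 CPM) and Lck (32.0 CPM against 242 CPM). Zap70, the kinase that binds the CD3 chains, and Cd247 were at 128 CPM against 75.8 CPM and 249.8 CPM against 74.2 CPM. Pdcd1, the inhibitory receptor PD-1, was at 159.8 CPM (120.4 to 208) against 21.3 CPM (16.1 to 27.7). Cytotoxicity genes were over 2-fold lower in 5 of 13 compared and higher in 0. The resident genes were over 2-fold higher in Trdc-positive cells in 3 of 6, 5 of 7 and 0 of 9 compared, and lower in 1, 0 and 1. Cxcr6 was at 704 CPM in Trdc-positive and 165 CPM in other T cells of the P10 control, 638 CPM and 176 CPM in the P10 mutant, and 828 CPM and 449.6 CPM at 3 months.

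Promoters of 3 genes of interleukin 17 production are shown with the letters AGGTCA, a half-site that many nuclear receptors bind. The stretches are again the 250 bases before the RefSeq start in GRCm38.p6, 5′ to 3′ on the gene's strand, with each match on either strand in capitals (TGACCT is the reverse). Il17a lies at chr1:20730905-20734496 with its stretch at chr1:20730655-20730904, Il17f, its close relative, at chr1:20777146-20790617 with chr1:20784271-20784520, and Il23r at chr6:67422932-67491855 with chr6:67491856-67492105. The GENCODE span of Il17f likewise begins before the RefSeq start.
Il17a: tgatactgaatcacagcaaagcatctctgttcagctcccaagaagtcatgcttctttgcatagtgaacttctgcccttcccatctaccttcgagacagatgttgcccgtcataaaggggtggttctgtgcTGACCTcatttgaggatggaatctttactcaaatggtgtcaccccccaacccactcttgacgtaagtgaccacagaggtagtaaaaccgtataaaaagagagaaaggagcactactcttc
Il17f: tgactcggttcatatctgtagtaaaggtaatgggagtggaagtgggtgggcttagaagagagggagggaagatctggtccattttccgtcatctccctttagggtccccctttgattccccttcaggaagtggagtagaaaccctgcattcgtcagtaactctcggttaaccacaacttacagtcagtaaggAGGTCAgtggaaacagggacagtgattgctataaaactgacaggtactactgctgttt
Il23r: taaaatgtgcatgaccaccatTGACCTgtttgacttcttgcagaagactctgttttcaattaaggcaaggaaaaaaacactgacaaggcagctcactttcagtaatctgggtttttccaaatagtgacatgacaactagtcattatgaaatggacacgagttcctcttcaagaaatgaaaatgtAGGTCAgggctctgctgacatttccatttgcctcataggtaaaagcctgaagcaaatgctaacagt
Matches began 120 bases before the start in Il17a, 58 in Il17f, and 229 and 66 in Il23r. AGGTCA was present in 4607 of 32851 stretches (14.0%) and in 15.8% of genes at any start, and it was found for 4 of 8 type 3 genes and 1 of 12 cytotoxicity genes. The 2 motifs overlapped at 0 places in the 6 stretches shown.

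Between libraries, the Trdc-positive cells differed in genes of division. In the P10 mutant against the P10 control 6.41% of 4726 genes were over 2-fold higher and 3.98% lower. Of the dividing-cell genes 8 of 10 compared were higher and 0 lower (median log2 ratio 1.85, beside 0.03 over all genes). Mki67, the proliferation marker Ki-67, was at 11.7 CPM (2.41 to 34.1) in 1 of 33 cells of the control and 76.0 CPM (53.8 to 104) in 7 of 63 of the mutant. In the 3-month against the P10 mutant 9 of 11 were lower and 0 higher (median -2.05), with 6.19% of 5008 genes higher and 9.48% lower. Both comparisons use the P10 mutant, where 1 cell held 44.7% of the Mki67 UMIs and the level without it was 43.9 CPM (27.2 to 67.2). Without the P10 mutant cell with most UMIs of these genes, 5 of 8 compared were over 2-fold higher than in the control, and 4 of 7 were lower at 3 months. By a count of at least 3 UMIs of Mki67, Birc5, Ube2c and Cdk1, 1, 8 and 1 Trdc-positive cells passed, at median depths of 6295, 6523 and 4435.5 UMIs. In macrophages Mki67 was at 44.7 CPM (36.3 to 54.5), 65.0 CPM (55.5 to 75.7) and 10.4 CPM (7.83 to 13.5), and what it shares with the T cells was not tested.

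Other differences between the mutants in these cells were in cytotoxicity genes, of which 5 of 9 compared were over 2-fold higher at 3 months and 0 lower (median log2 ratio 1.12), and in Il17f. Ccl5 was at 1473 CPM (1347 to 1607) at 3 months and 44.0 CPM (27.6 to 66.6) at P10, in 13 of 70 and 3 of 63 cells. Without the cell with most Ccl5 UMIs these levels were 988 CPM (885 to 1099.8) and 14.2 CPM (5.70 to 29.2). Il17f was at 11.6 CPM (3.17 to 29.8) at 3 months, at 298 CPM (252 to 349.8) in the P10 mutant and at 125 CPM (85.2 to 176) in the P10 control, in 4, 11 and 6 cells. A single cell held 32.2% of these UMIs in the P10 mutant and 65.6% in the control, and without it the levels were 208 CPM (169.7 to 253) and 45.1 CPM (22.5 to 80.8). Il17a differed by less than 2-fold between the mutants. Of the type 3 genes 0 of 9 were higher and 2 lower. The receptor complex passed 2-fold for none of 7 genes in either comparison, and the resident genes for 0 of 7 between the mutants. Cxcr6 was detected in 29 of 33, 59 of 63 and 61 of 70 cells and Cd69 in 31, 57 and 63, so these markers were in most Trdc-positive cells of each library.

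Taken over all T cells, the 3-month mutant had more cytotoxic, type 1 and inhibitory receptor RNA than the P10 mutant, and less of the type 3, gamma-delta and dividing genes. Among 10028 genes 15.9% were over 2-fold higher and 7.73% lower at 3 months (median log2 ratio 0.05). At most 5% mitochondrial UMIs this split became 1267 higher and 1111 lower, from 1594 and 775, with 15 T cells left in the P10 mutant. Age, library and the version of the counting software differ together here, and Gm42418, a noncoding gene model, was at 46007 CPM in T cells of the 3-month and 2216 CPM of the P10 mutant, with the same direction in macrophages (38304 CPM and 1722 CPM). Leaving Gm42418, Malat1 and the mitochondrial genes out of the totals moved the median to 0.11 and the split to 1722 and 674.

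Of the cytotoxicity genes 9 of 13 compared were over 2-fold higher and 0 lower (median 1.50), of the type 1 genes 5 of 8 and 0 (median 1.40), and of the inhibitory receptors 5 of 8 and 1 (median 1.76). Ccl5 was at 316 CPM (259.7 to 381), 67.0 CPM (49.4 to 88.9) and 3276 CPM (3211 to 3341) in the 3 libraries, in 5, 7 and 312 T cells. Without the cell with most Ccl5 UMIs the P10 levels were 216 CPM and 45.0 CPM. In macrophages it was at 85.3 CPM, 189.6 CPM and 284 CPM. Gzmk had 0 UMIs in T cells of both P10 libraries and was at 75.1 CPM (65.5 to 85.6) at 3 months. The ratio was 17.9 with the floor of 3 counts set for the P10 mutant cells. Tigit, an inhibitory receptor, was likewise at 0 UMIs at P10 and in 22 of 551 cells at 3 months. Pdcd1 was the inhibitory receptor lower at 3 months, at 37.4 CPM against 165 CPM, and Trdc-positive cells were 40 of the 42 cells with a UMI of it in the P10 mutant and 36 of 80 at 3 months.

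Lower at 3 months were 7 of 10 type 3 genes (median -1.51), 9 of 11 gamma-delta genes (median -2.21) and 11 of 12 dividing genes (median -2.82), and none of these lists had a gene over 2-fold higher. Il17a was at 1281 CPM (1165 to 1406), 1254 CPM (1173 to 1339) and 557 CPM (530.2 to 584), in 19 of 44, 40 of 86 and 82 of 551 T cells. Without the cell with most Il17a UMIs the level of the P10 control was 657 CPM. Trdc-positive cells were 73.3% of the T cells in the P10 and 12.7% in the 3-month mutant. Within Trdc-positive cells 9 of 11 dividing genes, 2 of 9 type 3 genes and 1 of 11 gamma-delta genes were over 2-fold lower. The type 2 genes were lower in 3 of 5 compared: Il4, Il5 and Il13 were detected in 7, 3 and 4 T cells of the P10 mutant. The P10 control had 0, 0 and 2 such cells, and at 3 months there were 1, 0 and 1. In the P10 mutant they were in cells without Trdc for all of Il5 and Il13 and for 6 of 7 cells with Il4. All 17 Il5 and 42 of the 43 Il13 UMIs lay in cells with neither coreceptor and no Trdc. Of these cells 7 of 17 had a Trac UMI, and whether those with type 2 genes are T cells was not tested. A single cell held 56.0% of the Il4, 88.2% of the Il5 and 69.8% of the Il13 UMIs of the P10 mutant's T cells.

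**Figure D5:**
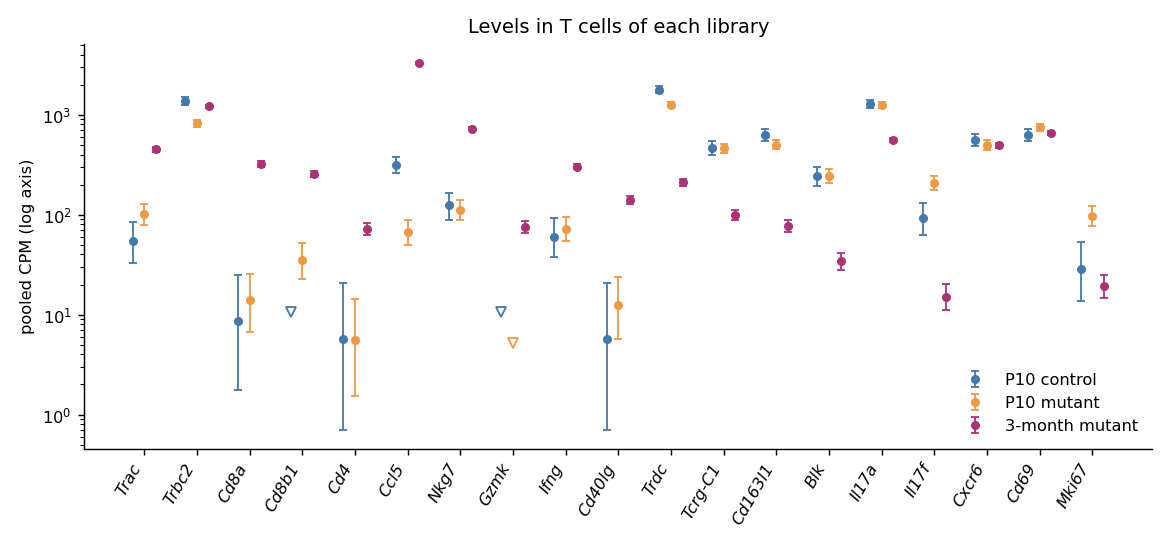
Pooled level of selected genes in T cells of each library, in CPM on a log axis, with exact Poisson 95% intervals as bars and open triangles at the upper limit where no UMI was counted. Ccl5, Nkg7, Cd8b1 and Gzmk are highest in the 3-month mutant, Trdc is highest in the P10 libraries, and the triangles stand for Cd8b1 and Gzmk in the P10 control and Gzmk in the P10 mutant.

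The remaining lists are given by their counts, to be read beside the shares of all genes compared. Between CD8 and CD4 cells 5.74% of all genes were over 2-fold higher and 8.31% lower. Over all T cells between the mutants the shares were 15.9% and 7.73%. A list whose counts lie near these shares does not stand out from other genes. Between CD8 and CD4 cells the inhibitory receptors had 1 of 6 compared over 2-fold higher, Cd160 (191 CPM against 25.5 CPM, or 12.8 CPM without 1 CD4 cell), and 2 lower, Ctla4 (84.6 CPM against 436 CPM) and Havcr2 (TIM-3, 10.2 CPM against 23.0 CPM). The chemokine receptors had 0 of 6 higher and 2 lower, Ccr2, which guides cells to inflamed tissue (53.8 CPM against 239.8 CPM), and S1pr1, which guides their exit (17.9 CPM against 62.5 CPM). None of 6 dividing genes passed 2-fold, and of 3 thymocyte genes compared Cd8b1, which the split used, was higher. Over all T cells between the mutants the chemokine receptors had 2 higher and 2 lower of 10, the naive genes 1 and 1 of 10, the resident genes 3 and 0 of 9, the regulatory genes 3 and 1 of 9, the receptor signalling genes 6 and 0 of 18, the receptor complex 1 and 1 of 7, the effector chemokines and cytokines 4 and 1 of 8, the natural killer and innate lymphoid genes 3 and 3 of 9 and the thymocyte genes 2 and 0 of 3.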

How the data were processed

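The authors deposited, per library, matrices of raw whole-number UMI counts, 1 row a gene and 1 column a barcode. Cell Ranger made these counts, version 6.0.1 at 3 months and 4.0.0 at P10 by the file headers, and the submitters' processing notes also name Seurat 3.2.3 and bcl2fastq. The 10x 3′ chemistry counts the ends of transcripts, so levels of variable regions and of genes with shared ends are incomplete. Each library lists 32285 features, of which 32235 were found in GENCODE M21, the source of gene coordinates on GRCm38. Of 40 repeated symbols the first entry was used. The files hold 0 columns of other series.

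The counts were summed over the cells of each class and library with Python 3.11.15, numpy 2.4.6, scipy 1.17.1 and pandas 2.3.3, and divided by all UMIs of those cells (CPM). With 1 library per group no test was made and no p-value was computed. Intervals are 95% and cover counting error only, neither the spread between cells nor between animals. A gene entered a comparison with at least 20 UMIs over both sides, and a gene at 0 was set to a floor of 3 counts over the group. Thinning drew 1000 UMIs per cell without replacement, in 1 seeded draw. Macrophages, to show the level of free RNA, and B cells were set by marker counts. The scripts were tested on simulated counts.

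The rule for T cells, the gene lists and the named genes were chosen with earlier results of these data known. Named for CD8 against CD4 cells were the 10 genes with the largest lower bound and the 10 with the smallest upper bound of the ratio, with no cell holding over 25% of the UMIs of the higher side, leaving out Cd4, Cd8a and Cd8b1. For T cells against the other kept barcodes the 15 with the largest lower bound were named, leaving out the CD3 genes, and beside these members of the lists. Klra1, Tcrg-V6 and Gm42418 are in no list and were named after their values were seen. Promoter sequences came from RefSeq for GRCm38.p6. Some genes are not reported here by name, though they count in the lists.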

Additional observations from a re-analysis of the deposited data

How the results depend on the processing

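No paired analysis was possible because each group has 1 library. With 1 library a group, no replicate could be left out. Among the alternatives, the order of the P10 T cell shares turned with at most 5% mitochondrial UMIs. Ratios of the genes named for CD8 against CD4 cells were rechecked wherever a setting still compared them. None turned direction, with 134 of these ratios the same and 11 moved. The genes named for T cells against the other kept barcodes were not rechecked. Of the main shares and counts 51 kept their value within the interval or within 1.5 times, and 16 moved. Of the values of single genes and lists 194 stayed and 15 moved. At most 5% mitochondrial UMIs gave T cell shares of 1.41%, 1.22% and 12.9% (P10 control, P10 mutant, 3-month mutant), a Trdc-positive share of 60% in the P10 mutant, and 277 genes over 2-fold higher in CD8 cells beside 595 lower, against 459 and 665. At least 2000 UMIs per barcode gave a T cell share of 11.4% at 3 months, and leaving out cells with markers of another type gave 9.42%, with 433 genes higher and 511 lower in CD8 cells. At least 2 UMIs to call a class gave a CD4 share of 11.3%, and Cd8b1 alone a CD8 share of 31.9%. Thinning to 1000 UMIs gave 7.99% CD4 and 29.0% CD8 cells at 3 months, 50% Trdc-positive cells in the P10 mutant, and 131 genes higher and 155 lower in CD8 cells, since fewer genes reached 20 UMIs. At least 50 UMIs per gene left 157 higher and 277 lower, from 4732 genes. Apart from these genes that were left out, the cause of a moved value was not tested. The alternatives for Trdc-positive cells, and those for levels between libraries, were chosen after seeing the data, as were those that leave out 1 cell. The P10 values rest on 44 and 86 cells, which limits every level and share given for them, and the median depth of 4168 UMIs at 3 months limits how many cells without a UMI of Cd4 or Foxp3 lack the RNA.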

Other observations

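Variable-region genes of the receptor, which 3′ libraries capture poorly, were counted in part of the T cells of the 3-month mutant. Genes of the alpha variable family (Trav) had 125 UMIs in 96 cells from 43 genes, and those of the beta family (Trbv) 80 UMIs in 68 cells from 17 genes. In Trdc-positive cells Trdv4 had 231 UMIs in 53 of 70 cells, Trgv2 was detected in 22 and Tcrg-V6 in 17. CD8 cells held 63 UMIs of gamma variable genes in 36 of 215 cells, CD4 cells 2 in 1 of 128. At P10 Trdv4 was the variable gene detected in most cells, 22 of 44 and 25 of 86.

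Genes of the early response to dissociation were detected in all T cells and in most B cells and macrophages. All 551 T cells of the 3-month mutant had at least 1 UMI of the 12 genes, as did all 44 and 86 at P10. So did 86 of 86, 87 of 87 and 136 of 137 B cells in the 3 libraries. Among macrophages they were 263 of 269, 239 of 243 and 653 of 689. Between CD8 and CD4 cells 0 of 12 were over 2-fold higher and 3 lower (median log2 ratio -0.75). Over all genes compared 5.74% were higher and 8.31% lower. Fos was at 1258 CPM (1195 to 1324) in CD8 and 2129 CPM (2028 to 2233) in CD4 cells. Between the P10 libraries 5 of 12 were higher in Trdc-positive cells of the mutant and 1 lower, beside 6.41% and 3.98% of all genes compared. Hspa1a, a heat-shock gene with a near-identical copy, was at 1284 CPM against 323 CPM. Without the cell with most Hspa1a UMIs of each library these levels were 1059 CPM and 187 CPM.

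A few barcodes combined T cell genes with those of another cell type. Over 1% of UMIs in neutrophil markers was found for 2 T cells of the P10 control and 3 of each mutant, up to 41.8%, 28.7% and 7.28%. A CD8 cell of the 3-month mutant, with 69135 UMIs and 14 UMIs of the CD3 genes, held 1757 UMIs of vomeronasal receptor genes, out of 1867 in all 551 T cells. Whether such barcodes are doublets was not tested.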
